A study of Homo sapiens with 8 samples.

Results

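OVCAR5 cells, a human ovarian carcinoma line, were compared after 48 h with 10 µM lovastatin and after 48 h with its solvent DMSO, on 2 beadchip arrays per group. Lovastatin is a statin, a drug that inhibits HMG-CoA reductase, the enzyme that makes mevalonate. These 4 arrays are part of a set of 8, in which SKOV3 cells, another ovarian carcinoma line, received the same treatments. Per the labels both groups grew in RPMI-1640 with fetal calf serum, neither carried a named genetic change, and each is a culture of 1 line. The genes described are those with a probe of 1 gene symbol that was detected at p under 0.01 on at least 2 of the 4 OVCAR5 arrays, each gene being read on its brightest such probe. That left 9825 of the 20046 genes with a named probe.

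Mevalonate is the source of cholesterol and of the farnesyl and geranylgeranyl chains that anchor small GTPases of the Ras and Rab families to membranes. Cells sense a shortage of sterol through SREBP factors, which switch on the enzymes of sterol synthesis and sterol uptake. Loss of the lipid anchors disturbs the actin cytoskeleton and the activity of the co-activators YAP and TAZ, and statins are known to slow the growth of many cancer lines in culture.

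The labelled cell type was set against markers before the treatment was read. The epithelial genes KRT8, KRT18, EPCAM and ELF3 were detected on all 4 OVCAR5 arrays, with KRT8 at 10.94 and 11.08 in DMSO and 10.85 and 11.09 in lovastatin, and EPCAM at 9.63 and 9.70 in DMSO and 10.16 and 10.15 in lovastatin. KRT7, KRT19, CDH1, ESRP1 and GRHL2 were undetected on all 4, so that 5 of 12 epithelial markers were absent at this sensitivity, the cadherin of epithelial junctions among them. CLDN7 and MUC1 were undetected on both DMSO arrays but detected in lovastatin, and CLDN4 was detected on 1 of 2 DMSO arrays. Of 12 Müllerian and ovarian carcinoma markers 9 were undetected, including MUC16, WT1 and FOLR1. PAX8, a lineage factor of the Müllerian tract, was present at 5.67 and 5.80 in DMSO and 6.95 and 7.11 in lovastatin, and MECOM, a gene often amplified in ovarian carcinoma, at 8.01 and 8.31 in DMSO and 7.24 and 7.10 in lovastatin. Of 18 gastrointestinal markers, CDX2, CDH17 and VIL1 included, 0 were detected on any array. Among fibroblast and mesothelial markers 8 of 12 were undetected, COL1A1 and DCN included, while CALB2, the calretinin gene of mesothelium, was bright at 12.15 and 12.18 in DMSO and 11.85 and 11.73 in lovastatin. Of 11 leukocyte markers 7 were undetected, with PTPRC and CD3E among them. AIF1, at 7.07 and 6.67 in DMSO and 6.16 and 6.55 in lovastatin, was detected on all 4 arrays. So was CD14, at 5.94 and 5.92 in DMSO and 6.54 and 6.41 in lovastatin, and CSF1R was detected on both lovastatin arrays. Markers of the labelled ovarian carcinoma type were thus found in part only, and the identity of the line was not tested.

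**Figure D1:**
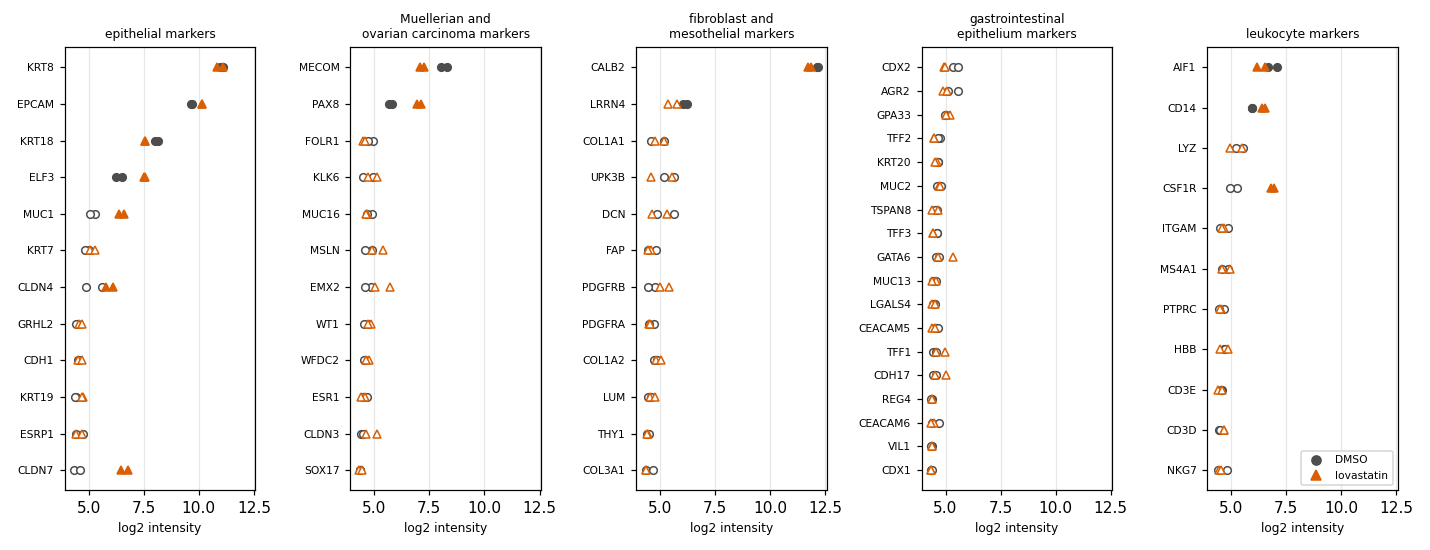
Levels of the marker genes on the 4 OVCAR5 arrays, in log2 intensity after background correction and quantile normalization. Circles are DMSO arrays and triangles lovastatin arrays; a symbol is filled where both arrays of its group detected the gene. KRT8, EPCAM and CALB2 are bright on every array, and none of the 18 gastrointestinal markers is filled.

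Between 15370 and 16206 of 47323 probes were detected on an OVCAR5 array. The pair of DMSO arrays correlated at r = 0.993 over the tested genes, as did the pair of lovastatin arrays (genes are not independent replicates), and the SD of their log2 difference was 0.247 and 0.235. Whether the 2 arrays per treatment stem from separate cultures is not given in the labels, so p-values measure only spread between arrays. The fit took that spread from all 8 arrays together, SKOV3 included. In SKOV3 the SD of the log2 difference was 0.228 for DMSO and 0.338 for lovastatin. Having 2 arrays per group limits the precision. Levels are given as log2 intensity for DMSO arrays 1 and 2 and lovastatin arrays 1 and 2. A change is the mean log2 level in lovastatin minus that in DMSO, ± the standard error of limma's fit with n = 2 arrays per group. Adjusted p is limma's, by Benjamini-Hochberg over the 9825 genes, and a gene is said to have risen or fallen where it was under 0.05. Every such gene had both lovastatin arrays on 1 side of both DMSO arrays. Where all arrays of a group left a gene undetected, the change is given as a bound: the mean of the brighter group over that of the dimmer one, where each dim array counts at its faintest detected signal or the gene's own, whichever is greater.

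Lovastatin changed 2734 of the 9825 genes (27.8%). Those that rose numbered 1583 (16.1%) and those that fell 1151 (11.7%), and a change of 2-fold or more was seen in 429 and 172. Leaving out any 1 of the 4 arrays lowered the count to 1490 to 1578, with 912 to 992 higher and 577 to 626 lower. Scaling arrays to a common median in place of quantile normalization moved the median of all genes from 0.01 to -0.07, and the share of called genes that rose from 57.9% to 47.5%. Of the genes undetected on both DMSO arrays 239 of 290 rose, and of those undetected on both lovastatin arrays 88 of 111 fell; they entered the test only through the group in which they were seen, so these counts are no finding. Without background correction, 83 of 199 called genes eligible for naming had a change over 1.5 times smaller, at a median level of 6.33 against 9.57 for the rest, and 0 of 199 changed sign. The counts of each gene list below are to be read beside the shares over all genes, 16.1% higher and 11.7% lower. A count near its share is no finding about the list.

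Among the highest risers were DDIT4 and GDF15 of stress signalling, the coagulation gene THBD and aldo-keto reductases, and among the lowest fallers the YAP targets ANKRD1, CCN2 and CCN1 and the desmosome gene PKP2. DDIT4, which encodes an inhibitor of mTORC1, lay at 6.45 and 6.36 in DMSO and 10.68 and 10.55 in lovastatin, a rise of 4.21 ± 0.11 (adjusted p = 1.4e-06). BHLHE40, a transcriptional repressor of the clock and of hypoxia, lay at 6.34 and 5.73 in DMSO and 9.74 and 9.73 in lovastatin and rose by 3.70 ± 0.19 (adjusted p = 1.5e-05). THBD, the thrombin receptor thrombomodulin, lay at 6.72 and 6.71 in DMSO and 9.96 and 9.96 in lovastatin and rose by 3.24 ± 0.10 (adjusted p = 2.2e-06). In each of these genes the gap between treatments was several times the gap between arrays of a group. RAP1GAP, which switches off the GTPase Rap1, rose by 3.24 ± 0.15, ARL14, a small GTPase gene, by 2.97 ± 0.15, and APCDD1L, related to a Wnt inhibitor and detected on 1 of 2 DMSO arrays, by 3.28 ± 0.22. CALHM3, which encodes an ion channel, was at least 5.62-fold higher (adjusted p = 2.2e-06), FOXQ1, a forkhead factor, at least 4.4-fold higher (adjusted p = 7.1e-06), and SLCO2B1, an organic anion transporter, at least 4.95-fold higher (adjusted p = 9.6e-06). All 3 were undetected on both DMSO arrays.

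Among the fallers, RIMS2, a gene of vesicle release at synapses, lay at 8.10 and 7.87 in DMSO and 5.02 and 4.84 in lovastatin and was at least 5.69-fold lower (adjusted p = 6.7e-06). PKP2, which encodes the desmosome protein plakophilin 2, lay at 7.46 and 7.64 in DMSO and 5.56 and 5.20 in lovastatin and changed by -2.18 ± 0.14 (adjusted p = 3.7e-05). KISS1, the precursor of the peptide kisspeptin, lay at 11.82 and 11.73 in DMSO and 9.77 and 9.71 in lovastatin, a change of -2.04 ± 0.11 (adjusted p = 2e-05). PPME1, a methylesterase of protein phosphatase 2A, lay at 11.44 and 11.67 in DMSO and 9.31 and 9.50 in lovastatin and changed by -2.15 ± 0.13, and ANXA3, a calcium-dependent membrane-binding protein, by -2.07 ± 0.13. The transcribed pseudogene SFTA1P changed by -2.37 ± 0.18 and VSTM1, an immunoglobulin-type receptor gene, by -2.25 ± 0.12. Genes that fell out of detection were RGS7, a regulator of G protein signalling, at least 3.75-fold lower (adjusted p = 2e-05), TUB, the gene of the tubby protein, at least 3.06-fold lower (adjusted p = 2.5e-05), SERTAD4, at least 2.5-fold lower (adjusted p = 8.3e-05), and its antisense neighbour SERTAD4-AS1, at least 2.58-fold lower (adjusted p = 4.4e-05).

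**Figure D2:**
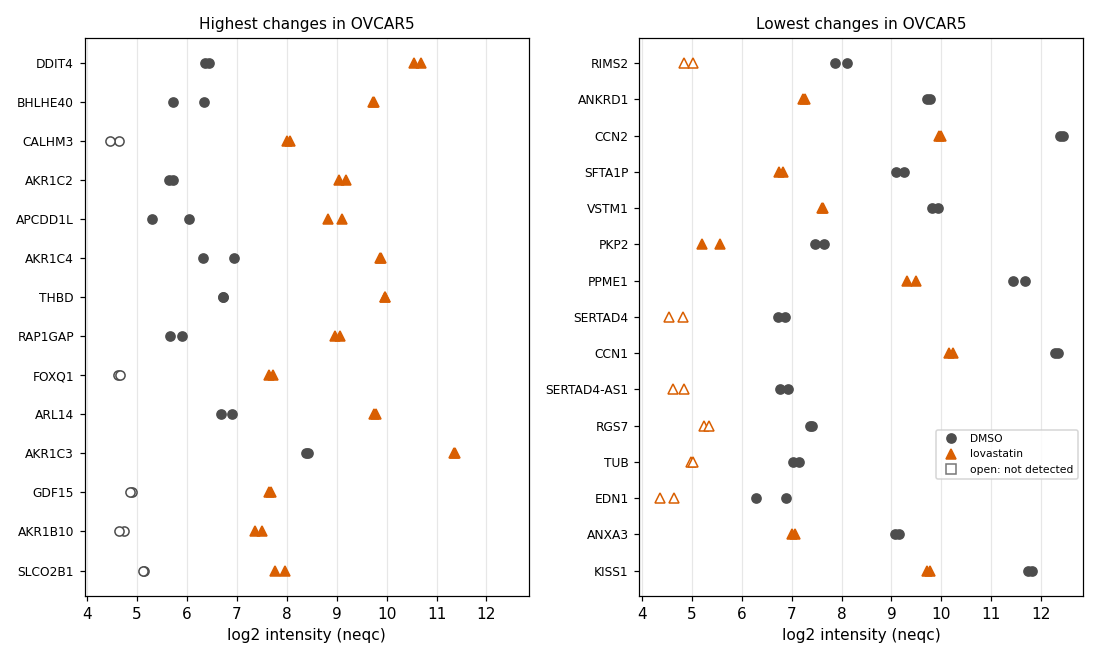
Log2 intensity of the genes with the highest (left, 14 genes) and lowest (right, 15 genes) changes on each OVCAR5 array. Circles are DMSO and triangles lovastatin arrays, and open symbols mark a group in which no array detected the gene. Genes were shown only where the arrays of the 2 treatments do not overlap. The symbols of a group lie close together except in APCDD1L, AKR1C4, BHLHE40 and EDN1, whose DMSO arrays are farthest apart.

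Targets of YAP and TAZ, co-activators that bind DNA through TEAD factors, fell: 11 of 18 tested members fell and 0 rose, with a median change of -0.51 against 0.01 over all genes. Leaving out 1 array lowered the count to 7 to 9. ANKRD1, a nuclear ankyrin protein, lay at 9.70 and 9.78 in DMSO and 7.22 and 7.26 in lovastatin and changed by -2.50 ± 0.12 (adjusted p = 9.6e-06). CCN2, a secreted matrix protein also known as connective tissue growth factor, lay at 12.38 and 12.44 in DMSO and 9.99 and 9.95 in lovastatin and changed by -2.44 ± 0.11 (adjusted p = 8.3e-06). CCN1, its relative, lay at 12.33 and 12.29 in DMSO and 10.16 and 10.23 in lovastatin, a change of -2.12 ± 0.17 (adjusted p = 1e-04). TGFB2, a TGF-beta ligand detected on 1 of 2 lovastatin arrays, changed by -1.37 ± 0.13. CRIM1, NUAK2, F3, FJX1, ASAP1, GADD45B and DOCK5, named after their values were seen, fell too, by 0.97 in CRIM1 and 0.91 in NUAK2, a kinase gene, down to 0.36 in DOCK5. Of these, DOCK5, ASAP1, FJX1 and GADD45B lost their call without 1 or more of the 4 arrays, at changes of -0.52 to -0.33. DOCK5 was also not called without background correction, with median scaling or with a variance trend (adjusted p = 0.12, 0.085 and 0.15). Nor was it called with no filter on dim probes or with a replicate block (adjusted p = 0.063 and 0.061). ASAP1 was not called with the mean of its probes (adjusted p = 0.076). The members were not alike: NT5E, an ectonucleotidase gene, and MYOF, myoferlin, also singled out, showed log2 differences of 0.27 ± 0.14 (adjusted p = 0.2) and 0.18 ± 0.12 (adjusted p = 0.31).

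The promoters of 4 of these fallers are shown because they hold the letters GGAATG or their complement, the core of the TEAD binding site. The RefSeq sequences (GRCh38.p14) run over the 250 bases before the gene's start, 5′ to 3′ on the gene's strand, with the motif in capitals on either strand. CCN2 spans chr6:131951373-131951622 and holds 3 copies, ANKRD1 spans chr10:90921088-90921337 and holds 2, NUAK2 spans chr1:205321746-205321995 and holds 2, and TGFB2 spans chr1:218345086-218345335 and holds 1.
CCN2: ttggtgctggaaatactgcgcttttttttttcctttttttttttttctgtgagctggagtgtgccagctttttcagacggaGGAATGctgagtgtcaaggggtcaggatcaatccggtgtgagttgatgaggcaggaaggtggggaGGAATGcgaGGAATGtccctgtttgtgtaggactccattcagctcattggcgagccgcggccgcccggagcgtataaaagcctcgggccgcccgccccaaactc
ANKRD1: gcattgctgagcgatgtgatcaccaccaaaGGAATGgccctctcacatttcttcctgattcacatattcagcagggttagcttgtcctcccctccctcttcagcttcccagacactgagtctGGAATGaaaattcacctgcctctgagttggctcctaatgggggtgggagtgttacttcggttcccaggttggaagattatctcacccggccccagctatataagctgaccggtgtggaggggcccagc
NUAK2: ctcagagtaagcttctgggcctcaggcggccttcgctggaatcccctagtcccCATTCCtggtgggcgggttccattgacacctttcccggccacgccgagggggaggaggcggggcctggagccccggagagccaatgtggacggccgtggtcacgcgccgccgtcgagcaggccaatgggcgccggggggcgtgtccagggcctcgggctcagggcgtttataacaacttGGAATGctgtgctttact
TGFB2: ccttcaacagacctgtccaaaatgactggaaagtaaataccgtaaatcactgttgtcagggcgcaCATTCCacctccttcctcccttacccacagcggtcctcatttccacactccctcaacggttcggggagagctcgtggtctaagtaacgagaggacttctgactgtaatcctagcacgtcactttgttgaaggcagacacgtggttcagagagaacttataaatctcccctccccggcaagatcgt
In CCN2 the copies start 169, 104 and 95 bases before the gene's start. Of 13 members of the list with a promoter in the table, 5 held the motif (38.5%), as did 11.9% of all 27305 promoters and 9.24% of the promoters of 7998 tested genes. Of the 7 fallers with a promoter 4 held it. A match of letters is a description and shows no binding, and the set was looked at with the changes known.

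Of 17 tested genes of the actin cytoskeleton that SRF controls, 5 fell and 1 rose. TPM1, a tropomyosin of actin filaments, changed by -1.03 ± 0.11 (adjusted p = 0.00041), TAGLN, an actin-bundling protein of smooth muscle, by -1.02 ± 0.19 (adjusted p = 0.0058), and FHL2, a LIM-domain co-factor, by -0.91 ± 0.13, while TGFB1I1, a focal adhesion adaptor, rose by 1.25 ± 0.12. The main actin genes ACTB and ACTG1, singled out after their values were seen, showed log2 differences of -0.03 ± 0.13 (adjusted p = 0.89) and -0.12 ± 0.12 (adjusted p = 0.48). 

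Krüppel-like factors, zinc finger factors that in endothelium carry much of the statin response, rose: 5 of 9 tested, 0 fell, with a median of 1.18, and 3 rose among those detected on all 4 arrays. KLF2 lay at 10.28 and 10.29 in DMSO and 12.51 and 12.65 in lovastatin and rose by 2.30 ± 0.16 (adjusted p = 4.2e-05). KLF9, detected on 1 of 2 DMSO arrays, rose by 2.25 ± 0.26 (adjusted p = 0.00057) and KLF13 by 1.63 ± 0.18 (adjusted p = 0.00055). KLF6 lay at 10.82 and 10.94 in DMSO and 12.29 and 12.22 in lovastatin, a rise of 1.37 ± 0.11 (adjusted p = 0.00012). KLF4 had a value of 0.42 ± 0.32 (adjusted p = 0.38). Of the family, 7 of 16 members with a probe were too dim to test.

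Genes of coagulation and vascular tone moved both ways, 4 higher and 3 lower of 13. Beside the rise of THBD, which restrains clotting, F3, the tissue factor that starts it, singled out after its value was seen, changed by -0.89 ± 0.13 (adjusted p = 0.0017), and by -0.44 on its other probe. PLAU, the urokinase gene, rose by 1.06 ± 0.11. THBS1, the matrix protein thrombospondin, lay at 10.55 and 10.61 in DMSO and 8.80 and 8.90 in lovastatin and changed by -1.74 ± 0.18 (adjusted p = 0.00041), and EDN1, the endothelin precursor, was at least 2.16-fold lower (adjusted p = 0.00024).

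Within the pathway that lovastatin blocks, 1 of the 7 tested genes of mevalonate synthesis and use rose and 1 of 9 genes from squalene to cholesterol, where 16.1% of all genes rose, and none fell in either list. HMGCS1, which makes HMG-CoA, lay at 9.40 and 9.29 in DMSO and 9.58 and 9.45 in lovastatin, a change of 0.17 ± 0.12 (adjusted p = 0.32). SQLE, squalene epoxidase, lay at 11.28 and 11.17 in DMSO and 11.50 and 11.53 in lovastatin, a change of 0.29 ± 0.18 (adjusted p = 0.29). The arrays of HMGCS1 do not overlap between treatments, but the nearest arrays of the 2 treatments lie closer together than the arrays of either group. The genes that rose were GGPS1, which makes the geranylgeranyl chain, at 0.74 ± 0.14 (adjusted p = 0.0065), and LSS, lanosterol synthase, at 0.83 ± 0.14 (adjusted p = 0.0033).

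Genes of sterol uptake and SREBP control had 4 higher and 1 lower of 10, 2 to 4 higher with 1 array left out. NPC1, which moves cholesterol out of lysosomes, lay at 7.59 and 7.67 in DMSO and 8.55 and 8.86 in lovastatin and rose by 1.07 ± 0.17 (adjusted p = 0.0025). INSIG1, the sterol-dependent anchor of SCAP, lay at 8.06 and 8.03 in DMSO and 8.87 and 8.90 in lovastatin and rose by 0.84 ± 0.12 (adjusted p = 0.0017). TMEM97, the sigma-2 receptor, fell by 1.32 on its brightest probe but had a value of 0.01 on the other. Among LXR receptors and targets, genes that oxysterols switch on, 3 of 8 fell and 1 rose (1 to 2 lower and 1 to 2 higher with 1 array left out). MYLIP, a ubiquitin ligase that degrades the LDL receptor, lay at 7.82 and 7.78 in DMSO and 5.80 and 5.76 in lovastatin and changed by -2.02 ± 0.12 (adjusted p = 2.2e-05). ABCA1, the cholesterol exporter, had a value of 0.26 ± 0.14 (adjusted p = 0.21). APOE, the lipid carrier, was at least 1.58-fold higher (adjusted p = 0.0026).

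Fatty acid synthesis had 3 higher of 13, and 1 to 2 with 1 array left out. ELOVL6, which lengthens saturated chains, rose by 0.70 ± 0.11 (adjusted p = 0.0026). Of 10 genes that attach and process the isoprenoid chains 1 fell, PGGT1B, a geranylgeranyl transferase subunit, at -0.48 ± 0.15 (adjusted p = 0.048). Its other probe had a value of 0.20. PGGT1B was not called when any 1 OVCAR5 array was left out, at changes of -0.59 to -0.37. Nor was it called with the mean of its probes or with median scaling (adjusted p = 0.49 and 0.088). The same held with a variance trend and with no filter on dim probes (adjusted p = 0.081 and 0.088). The farnesyl transferase genes FNTA and FNTB showed log2 differences of -0.20 ± 0.13 (adjusted p = 0.29) and 0.39 ± 0.14 (adjusted p = 0.072).

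Among the GTPases that carry those chains, 4 of 11 tested Ras, Ral, Rap and Rheb genes rose and none fell (2 to 3 with 1 array left out). RRAS, a Ras relative of integrin signalling, rose by 0.95 ± 0.16 (adjusted p = 0.0038), and RALA, a GTPase of vesicle docking, by 0.69 ± 0.12 (adjusted p = 0.0034). HRAS, singled out after its value was seen, had a value of 0.27 ± 0.12 (adjusted p = 0.12). Rab GTPases, which direct membrane traffic, had 13 of 34 higher and 2 lower, with a median of 0.31; 9 to 10 rose and 0 to 1 fell with 1 array left out. RAB27B, which drives secretion, lay at 4.69 and 4.43 in DMSO and 6.95 and 6.84 in lovastatin and was at least 2.55-fold higher (adjusted p = 2.2e-05). RAB40B rose by 0.94 ± 0.16 (adjusted p = 0.0037), and RAB3B and RAB20, singled out, changed by -0.90 ± 0.26 (adjusted p = 0.034) and -0.82 ± 0.17 (adjusted p = 0.0088). RAB3B was not called without DMSO array 1, DMSO array 2 or lovastatin array 2 (adjusted p = 0.16, 0.06 and 0.17), with the OVCAR5 arrays alone (0.059) or with no filter on dim probes (0.076). RAB20 was not called without DMSO array 1 or lovastatin array 1 (adjusted p = 0.062 and 0.068).

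Most genes of DNA replication fell. Of 33 tested, 28 fell and 0 rose, with a median of -0.71, and in 33 of 33 both lovastatin arrays lay below both DMSO arrays, as they did in 34.2% of all genes (36.4% lay above). With 1 array left out 18 to 20 fell. CDC6, which loads the replicative helicase and was detected on 1 of 2 lovastatin arrays, lay at 6.63 and 6.86 in DMSO and 5.49 and 5.04 in lovastatin and changed by -1.48 ± 0.18 (adjusted p = 0.00073). CDT1, its partner, lay at 9.13 and 9.15 in DMSO and 8.10 and 7.48 in lovastatin, a change of -1.35 ± 0.24 (adjusted p = 0.0042). MCM10 lay at 9.49 and 9.41 in DMSO and 8.11 and 8.23 in lovastatin, a change of -1.28 ± 0.13 (adjusted p = 0.00028). MCM4, a helicase subunit, changed by -0.98 ± 0.11, and all 6 subunits of that helicase, MCM2 to MCM7, fell by 0.48 to 0.98, the other 5 being named after their values were seen. MCM7 lost its call when any 1 of the 4 arrays was left out, at changes of -0.568 to -0.395. It was also not called with no filter on dim probes (adjusted p = 0.056).

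Genes of G2 and mitosis had 13 of 41 lower, 1 higher and a median of -0.37. That count fell to 2 to 4 with 1 OVCAR5 array left out and 8 with no filter on dim probes, and rose to 21 without background correction and 24 with median scaling. MKI67, the proliferation marker, lay at 6.85 and 7.21 in DMSO and 5.78 and 5.61 in lovastatin, a change of -1.33 ± 0.16 (adjusted p = 0.00081). CDCA8, a subunit of the chromosomal passenger complex, changed by -0.94 ± 0.15 (adjusted p = 0.003). CCNB1 and TOP2A, singled out after their values were seen, showed log2 differences of -0.03 ± 0.12 (adjusted p = 0.88) and -0.26 ± 0.17 (adjusted p = 0.28). CDC25B, the phosphatase that starts mitosis, rose by 0.75 ± 0.11 (adjusted p = 0.0017). The change in OVCAR5 was higher than in SKOV3 in 39 of 41 mitotic genes and 27 of 33 replication genes, where 14.7% of all genes were, with SKOV3 medians of -2.35 and -2.22.

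G1 control genes moved both ways, 3 higher and 4 lower of 16, and 2 to 3 lower with 1 array left out. The CDK inhibitors rose: CDKN1A, which encodes p21, lay at 7.58 and 7.36 in DMSO and 9.64 and 9.60 in lovastatin and rose by 2.15 ± 0.14 (adjusted p = 3.1e-05), CDKN1C, p57, was at least 4.67-fold higher (adjusted p = 2.2e-05), while CDKN2D, p19, rose by 1.07 ± 0.21 (adjusted p = 0.0065). E2F2, a factor that drives S-phase genes, changed by -0.94 ± 0.18 (adjusted p = 0.0056), and CCNE1, cyclin E, singled out, by -0.80 ± 0.14 (adjusted p = 0.0035). CDKN1B and CCND1, also singled out, showed log2 differences of 0.29 ± 0.12 (adjusted p = 0.11) and -0.12 ± 0.11 (adjusted p = 0.48). Of 18 p53 targets, CDKN1A among them, 4 rose, where 16.1% of all genes did. PHLDA3 was at least 2.83-fold higher (adjusted p = 7.6e-05). BCL2 family genes had 2 higher and 1 lower of 14, and 1 and 0 with 1 array left out.

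Repressors that oppose MYC rose and more than 1 in 2 genes of ribosome biogenesis fell. MYC itself lay at 11.92 and 11.85 in DMSO and 11.91 and 11.80 in lovastatin, a change of -0.03 ± 0.14 (adjusted p = 0.91), with overlapping arrays. MXD4, a repressor that competes with MYC for MAX, lay at 7.72 and 7.55 in DMSO and 9.90 and 9.89 in lovastatin and rose by 2.26 ± 0.14 (adjusted p = 2.5e-05). MXD1, detected on 1 of 2 DMSO arrays, rose by 1.82 ± 0.20 (adjusted p = 0.00045) and MNT, another such repressor, by 1.01 ± 0.20 (adjusted p = 0.007). The list that joins this network with ribosome biogenesis had 17 of 32 lower and 4 higher, all 4 of them MXD or MNT genes, and a median of -0.53. With 1 array left out 11 to 14 fell. RRP9, a component of the U3 particle that processes ribosomal RNA, lay at 8.19 and 8.32 in DMSO and 7.25 and 6.85 in lovastatin and changed by -1.21 ± 0.15 (adjusted p = 0.00077). RRS1, NOLC1 and PPAN, nucleolar factors named after their values were seen, changed by -0.96 ± 0.12, -0.93 ± 0.16 and -0.92 ± 0.16. Where 11.7% of all genes fell, 0 of 70 cytosolic ribosomal protein genes were called in limma's test, with a median of -0.05. Of 76 mitochondrial ones 11 fell, 2 to 4 with 1 array left out, and 17 to 25 under 5 other settings of scaling, probes and fit; MRPS25 changed by -0.88 ± 0.19 (adjusted p = 0.0099) and was not called without DMSO array 2 or without lovastatin array 2 (adjusted p = 0.06 and 0.067). The respiratory chain had 1 higher and 3 lower of 71, 0 higher and 1 to 2 lower with 1 array left out, and 1 to 6 lower under the other settings.

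**Figure D3:**
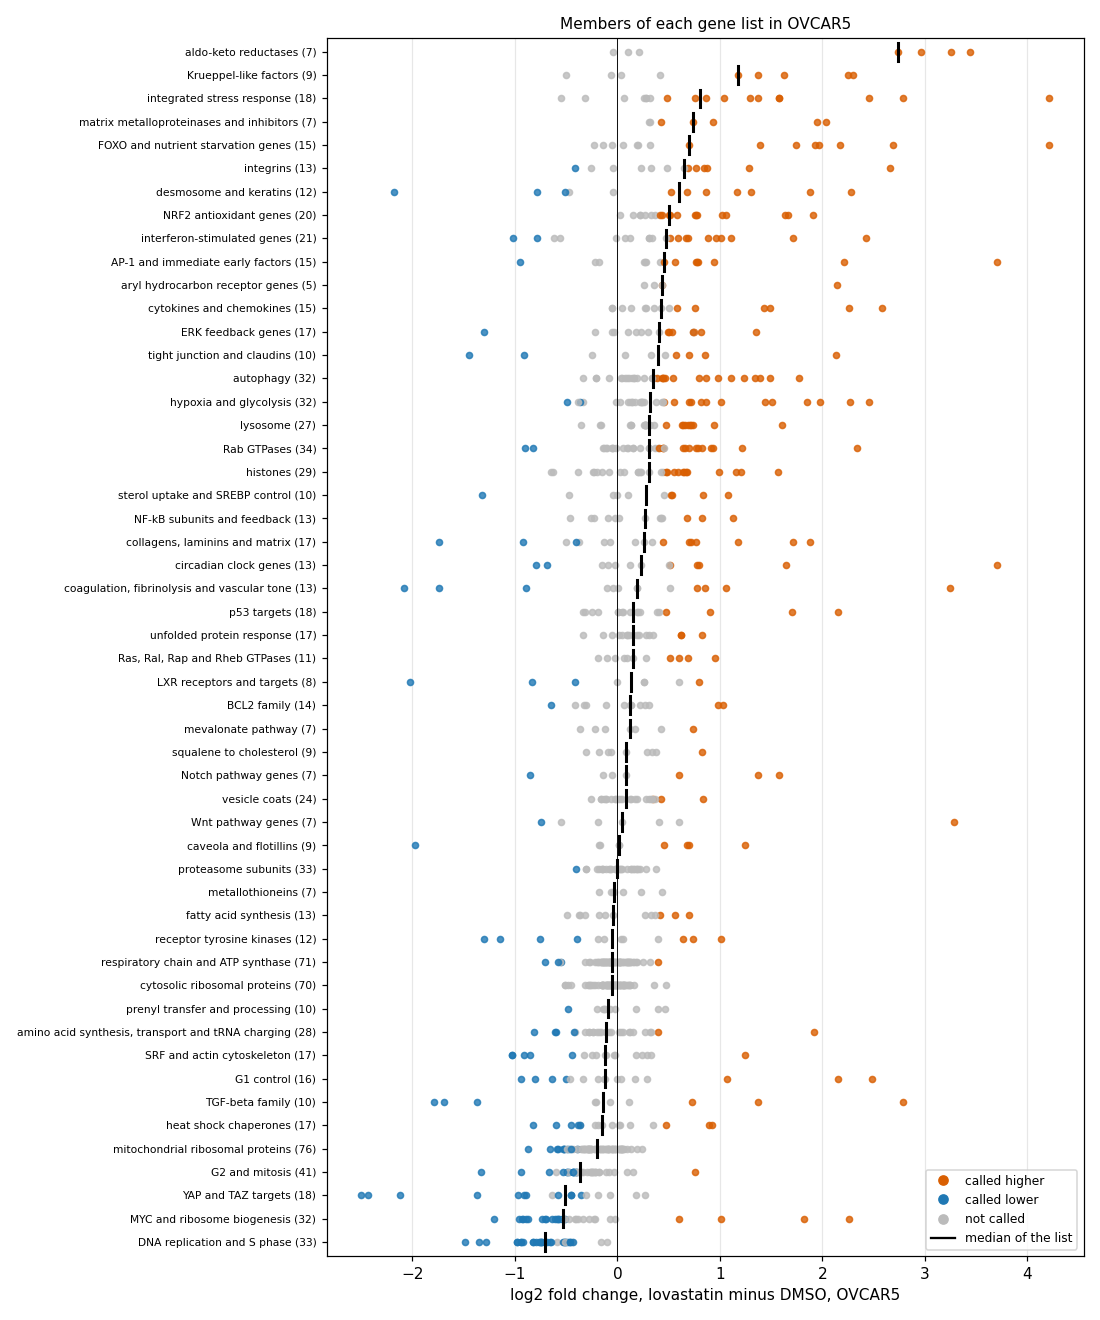
Change of each tested member of 52 gene lists in OVCAR5, as log2 fold change of lovastatin over DMSO. Each point is a gene, coloured by its call, and the black bar is the median of the list; the number of tested members is in parentheses. Replication genes lie to the left of 0, and 4 aldo-keto reductases lie beyond 2.

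The integrated stress response is a programme of ATF4 that cells run when they slow translation, and its genes rose in 11 of 18 members and fell in 0, with a median of 0.81. DDIT4 led them. GDF15, a secreted stress hormone, was at least 4.33-fold higher (adjusted p = 6.7e-06). NDRG1, a growth-restraining protein, lay at 10.71 and 10.78 in DMSO and 13.23 and 13.16 in lovastatin and rose by 2.45 ± 0.14 (adjusted p = 2.2e-05). DDIT3, the factor known as CHOP, lay at 7.39 and 7.41 in DMSO and 8.90 and 9.06 in lovastatin and rose by 1.58 ± 0.15 (adjusted p = 0.00021). Named after their values were seen, CEBPB, a bZIP factor, rose by 1.58 ± 0.14, EIF2AK3, the kinase PERK, by 1.30 ± 0.14, TRIB3, a pseudokinase, by 1.04 ± 0.16, STC2, a secreted glycoprotein, by 0.87 ± 0.16, and SLC7A11, the cystine transporter, by 0.75 ± 0.13. ATF4 mRNA had a value of 0.26 ± 0.11 (adjusted p = 0.1) on its brightest probe and of -0.02 on another of its 3 probes. The brightest probe was called with a variance trend and without background correction (adjusted p = 0.022 and 0.036). ATF3, singled out, had a value of 0.28 ± 0.29 (adjusted p = 0.52).

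Of 28 genes of amino acid synthesis, transport and tRNA charging, many of them targets of that response, 2 rose and 4 fell. With 1 array left out 1 rose and 1 to 2 fell, and 7 fell with median scaling. ASNS, asparagine synthetase, singled out, lay at 9.17 and 9.09 in DMSO and 9.32 and 9.17 in lovastatin and had a value of 0.11 ± 0.13 (adjusted p = 0.57). PSAT1, an enzyme of serine synthesis, lay at 10.16 and 10.28 in DMSO and 9.41 and 9.40 in lovastatin and changed by -0.81 ± 0.11 (adjusted p = 0.0015). SLC38A2, a glutamine transporter, rose by 1.92 ± 0.21 (adjusted p = 0.00045). The change was lower in OVCAR5 than in SKOV3 for 19 of the 28 genes, where 12.1% of all genes were, and PSAT1 rose by 1.08 ± 0.11 in SKOV3.

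Of 17 genes of the unfolded protein response 3 rose, HSPA5, the chaperone BiP of the endoplasmic reticulum, by 0.62 ± 0.12 (adjusted p = 0.0067); 1 to 3 rose with 1 array left out, and HSPA5 was not called without lovastatin array 1 (adjusted p = 0.054). Heat shock chaperones had 3 higher and 5 lower of 17, and 1 to 2 higher and 1 to 2 lower with 1 array left out. With no filter on dim probes or with a replicate block 3 fell. Among them were DNAJB4 at 0.93 ± 0.14 (adjusted p = 0.0022) and HSPA4 at -0.60 ± 0.11 (adjusted p = 0.0058). Over all tested genes 16.1% rose, a share near that of the unfolded protein response genes.

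Autophagy genes rose in 15 of 32 members and fell in 0, with a median of 0.35; with 1 array left out 8 to 10 rose. OPTN, a receptor that hands cargo to the autophagosome, lay at 6.91 and 6.83 in DMSO and 8.49 and 8.80 in lovastatin and rose by 1.77 ± 0.19 (adjusted p = 0.00044). WIPI1, a lipid-binding protein of the forming membrane, lay at 6.99 and 7.02 in DMSO and 8.52 and 8.47 in lovastatin and rose by 1.49 ± 0.11 (adjusted p = 6.5e-05). GABARAPL1, of the membrane-tag family, rose by 1.39 ± 0.15 (adjusted p = 0.00045), ATG2A, a lipid transfer protein, by 1.34 ± 0.14 (adjusted p = 0.00033), and MAP1LC3B, the LC3 gene, by 0.98 ± 0.13 (adjusted p = 0.0012). Members named after their values were seen were ULK1, the initiating kinase, at 1.24 ± 0.13 (adjusted p = 0.00045), and BECN1, ATG5 and ATG12, of the core machinery, at 0.05 ± 0.12 (adjusted p = 0.81), 0.16 ± 0.12 (adjusted p = 0.35) and -0.08 ± 0.12 (adjusted p = 0.65).

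Lysosomal genes rose in 10 of 27 and fell in 0, with 6 to 7 higher when 1 array was left out. CTSD, the protease cathepsin D, lay at 8.99 and 9.0 in DMSO and 10.59 and 10.60 in lovastatin and rose by 1.60 ± 0.14 (adjusted p = 0.00014). CD68, a lysosomal membrane protein abundant in macrophages, rose by 0.95 ± 0.15 (adjusted p = 0.0025), with 0.33 on another of its 3 probes. NEU1, a sialidase, lay at 8.87 and 8.69 in DMSO and 9.45 and 9.59 in lovastatin and rose by 0.74 ± 0.15 (adjusted p = 0.0072); it was not called without DMSO array 2 or without lovastatin array 2 (adjusted p = 0.056 and 0.054). The leukocyte gene CSF1R, the receptor for a macrophage growth factor, was at least 2.53-fold higher (adjusted p = 0.00017), while PTPRC stayed undetected, and the part of other cells in the result was not tested.

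Promoters of CTSD and NEU1 are shown because they hold CACGTG, the palindromic E-box that TFEB and other basic helix-loop-helix factors read. They are RefSeq sequences of GRCh38.p14 over the 250 bases before the start, 5′ to 3′ on the gene's strand, with the motif in capitals, at chr11:1763928-1764177 and chr6:31862822-31863071.
CTSD: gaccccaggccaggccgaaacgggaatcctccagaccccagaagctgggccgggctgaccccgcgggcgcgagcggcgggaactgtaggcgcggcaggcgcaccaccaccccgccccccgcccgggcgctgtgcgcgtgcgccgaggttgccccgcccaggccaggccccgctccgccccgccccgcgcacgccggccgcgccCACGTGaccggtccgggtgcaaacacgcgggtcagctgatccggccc
NEU1: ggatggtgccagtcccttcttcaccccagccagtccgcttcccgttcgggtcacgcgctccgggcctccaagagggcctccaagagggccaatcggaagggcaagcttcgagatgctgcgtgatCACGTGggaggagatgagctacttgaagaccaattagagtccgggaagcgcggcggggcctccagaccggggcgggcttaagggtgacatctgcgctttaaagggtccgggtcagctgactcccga
Of 19 lysosomal genes with a listed promoter, 7 held the motif (36.8%), against 6.49% of all promoters and 9.33% of those of tested genes. It was present in 3 of the 8 that rose, and LAMP1, singled out for its 5 copies, had a change of 0.27 ± 0.14 (adjusted p = 0.18). In the other groups 1 to 4 promoters held the letters searched, on either strand. TGATGNAA was in 1 of 14 stress response promoters (7.14%, against 1.34% of those of tested genes). TGACNNNGC was in 4 of 16 NRF2 promoters (25%) and 1 of 6 aldo-keto reductase promoters (16.7%), against 12.4%. CACGTG was in 2 of 12 clock promoters (16.7%, against 9.33%) and TGTTTAC in 1 of 14 FOXO promoters (7.14%, against 1.9%).

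Genes that FOXO factors and nutrient loss switch on rose in 8 of 15, with a median of 0.70, DDIT4 again included. FBXO32, the ubiquitin ligase atrogin, lay at 9.10 and 8.96 in DMSO and 11.78 and 11.65 in lovastatin and rose by 2.68 ± 0.12 (adjusted p = 8.8e-06). TSC22D3, the glucocorticoid-induced leucine zipper, rose by 2.17 ± 0.15 (adjusted p = 4.2e-05), and its relative TSC22D1 lay at 10.35 and 10.27 in DMSO and 12.39 and 12.51 in lovastatin and rose by 2.14 ± 0.18 (adjusted p = 0.00015). CCNG2, a cyclin of quiescent cells, was at least 2.12-fold higher (adjusted p = 0.00027). TXNIP, a thioredoxin-binding protein that follows glucose, had a value of -0.23 ± 0.13 (adjusted p = 0.23).

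Antioxidant genes controlled by NRF2 rose in 13 of 20 and fell in 0, with a median of 0.51; with 1 array left out 7 to 9 rose. HMOX1, heme oxygenase, lay at 7.76 and 7.77 in DMSO and 9.67 and 9.68 in lovastatin and rose by 1.91 ± 0.12 (adjusted p = 2.8e-05). GCLC, the rate-limiting enzyme of glutathione synthesis, lay at 8.62 and 8.71 in DMSO and 10.33 and 10.33 in lovastatin and rose by 1.67 ± 0.15 (adjusted p = 2e-04), with 0.94 on its other probe. UGDH, which makes UDP-glucuronate, rose by 1.63 ± 0.14 (adjusted p = 0.00017) and PGD, an enzyme of the pentose phosphate pathway, by 1.06 ± 0.12 (adjusted p = 0.00046). NFE2L2, which encodes NRF2, singled out, had a value of 0.37 ± 0.22 (adjusted p = 0.24). NQO1, a quinone reductase, rose by 0.44 ± 0.11 (adjusted p = 0.021) but was not called with median scaling or when any 1 OVCAR5 array was left out (adjusted p = 0.08 to 0.16).

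The aldo-keto reductases, NADPH-dependent enzymes of steroid and aldehyde metabolism, held 4 of the 14 highest genes shown. AKR1C2 lay at 5.72 and 5.64 in DMSO and 9.04 and 9.19 in lovastatin and rose by 3.44 ± 0.13 (adjusted p = 4.1e-06). AKR1C3 lay at 8.39 and 8.42 in DMSO and 11.36 and 11.37 in lovastatin and rose by 2.96 ± 0.11 (adjusted p = 2.9e-06). AKR1C4 lay at 6.93 and 6.31 in DMSO and 9.87 and 9.88 in lovastatin and rose by 3.25 ± 0.19 (adjusted p = 2.2e-05). AKR1B10 was at least 3.68-fold higher (adjusted p = 8.8e-06). The AKR1C genes are near-identical paralogs, so which of them each probe reads is uncertain. AKR7A2 and AKR7A3, of another branch, singled out, showed log2 differences of 0.21 ± 0.16 (adjusted p = 0.36) and 0.10 ± 0.12 (adjusted p = 0.57). All 4 that rose had a higher change than in SKOV3, by 2.57 ± 0.18 in AKR1B10 and 1.13 ± 0.18 in AKR1C2. AKR1B10 was undetected on every SKOV3 array, with means of 4.52 in DMSO and 4.69 in lovastatin.

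The promoters of AKR1C2 and AKR1C3 are shown for their likeness (RefSeq, GRCh38.p14, 250 bases before the start on the gene's strand, no capitals because no TGACNNNGC was found), AKR1C2 at chr10:5003858-5004107 and AKR1C3 at chr10:5048531-5048780.
AKR1C2: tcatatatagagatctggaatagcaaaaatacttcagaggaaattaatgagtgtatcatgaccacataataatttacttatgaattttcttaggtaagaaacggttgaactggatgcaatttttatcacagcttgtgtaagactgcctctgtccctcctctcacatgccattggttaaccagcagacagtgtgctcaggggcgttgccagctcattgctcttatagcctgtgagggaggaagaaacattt
AKR1C3: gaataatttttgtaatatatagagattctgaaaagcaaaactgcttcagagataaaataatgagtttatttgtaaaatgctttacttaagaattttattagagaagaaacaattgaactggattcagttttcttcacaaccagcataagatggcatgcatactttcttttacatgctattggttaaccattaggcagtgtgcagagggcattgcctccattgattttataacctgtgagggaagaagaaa
In a global alignment 183 of 237 aligned bases were identical (77.2%).

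Secreted signals of inflammation rose in part. Of 15 cytokine and chemokine genes 6 rose and 0 fell. CXCL8, interleukin 8, lay at 8.22 and 8.05 in DMSO and 10.75 and 10.69 in lovastatin and rose by 2.58 ± 0.12 (adjusted p = 1.1e-05), with 1.67 on its other probe. PTGS2, cyclooxygenase 2, lay at 5.83 and 5.77 in DMSO and 8.06 and 8.04 in lovastatin and rose by 2.25 ± 0.13 (adjusted p = 2e-05), with 1.48 on its other probe. CXCL2 and IL1B rose by 1.49 ± 0.21 (adjusted p = 0.0016) and 1.43 ± 0.12 (adjusted p = 0.00012), while IL1A had a value of 0.28 ± 0.28 (adjusted p = 0.5) and IL6, singled out, of 0.51 ± 0.21 (adjusted p = 0.11). Of 13 NF-kB subunit and feedback genes 3 rose, NFKBIA, the inhibitor that NF-kB induces, by 1.13 ± 0.14 (adjusted p = 0.00082); 1 to 3 rose with 1 array left out.

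Immediate early factors, BHLHE40 included, had 8 of 15 higher and 1 lower, 4 to 7 higher with 1 array left out and 5 with no filter on dim probes. JUND lay at 10.48 and 10.45 in DMSO and 12.67 and 12.67 in lovastatin and rose by 2.21 ± 0.12 (adjusted p = 1.8e-05), whereas FOS, singled out, had a value of -0.22 ± 0.17 (adjusted p = 0.38). Genes induced by ERK as feedback had 7 higher and 1 lower of 17, and 3 to 4 higher with 1 array left out. ERRFI1, an inhibitor of the EGF receptor, rose by 1.35 ± 0.12 (adjusted p = 0.00017), and EPHA2, an ephrin receptor, changed by -1.30 ± 0.17 (adjusted p = 0.0012). Clock genes, of which BHLHE40 is also 1, had 5 higher and 2 lower of 13. With 1 array left out 2 to 3 rose and 1 to 2 fell, and 3 rose without background correction, with no filter on dim probes or among genes detected on all 4 arrays. NFIL3, a repressor of the clock output, rose by 1.65 ± 0.12 (adjusted p = 6.4e-05), and PER2 changed by -0.79 ± 0.12 (adjusted p = 0.0021).

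Cell junction genes moved both ways. Of 12 desmosome and keratin genes 7 rose and 3 fell, and 4 rose among those detected on all 4 arrays. JUP, plakoglobin, lay at 5.69 and 5.75 in DMSO and 7.87 and 8.13 in lovastatin and rose by 2.28 ± 0.15 (adjusted p = 3.5e-05), opposite to the fall of PKP2. PPL, periplakin, was at least 2.26-fold higher (adjusted p = 0.00041), while DSC2, a desmosomal cadherin detected on 1 of 2 DMSO arrays, rose by 1.30 ± 0.24 (adjusted p = 0.0048). Tight junction genes had 4 higher and 2 lower of 10, 1 to 2 lower with 1 array left out, and 2 higher among those detected on all 4 arrays. CLDN7 was at least 2.11-fold higher (adjusted p = 0.00031), while CLDN1, another claudin, lay at 7.26 and 7.47 in DMSO and 6.11 and 5.73 in lovastatin and changed by -1.44 ± 0.15 (adjusted p = 0.00037). Of the epithelial markers, ELF3, an epithelial ETS factor, rose by 1.13 ± 0.16 (adjusted p = 0.0018), MUC1 was at least 1.91-fold higher (adjusted p = 0.00053), while KRT18, singled out, fell by 0.51, and by 0.24 on its other probe. KRT18 was not called without DMSO array 1, lovastatin array 1 or lovastatin array 2 (adjusted p = 0.11, 0.066 and 0.076) or with the mean of its probes (0.08).

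Integrins, the receptors for matrix, had 6 of 13 higher and 1 lower, and 0 lower with 1 array left out. ITGB4, the hemidesmosome subunit, was at least 2.95-fold higher (adjusted p = 8.8e-06), with a log2 change of 1.59 on its other probe. ITGA2, a collagen receptor, rose by 1.29 ± 0.14 (adjusted p = 0.00046). Matrix metalloproteinases and their inhibitors had 5 of 7 higher: MMP3 lay at 6.25 and 6.0 in DMSO and 8.13 and 8.20 in lovastatin and rose by 2.04 ± 0.16 (adjusted p = 8.4e-05), MMP1 was at least 3.02-fold higher (adjusted p = 0.0013), while the inhibitor TIMP2 rose by 0.73 ± 0.14 (adjusted p = 0.0054), and by 0.48 on its other probe. Collagen, laminin and matrix genes had 7 higher and 3 lower of 17, and 4 to 6 higher with 1 array left out, with COL7A1, which anchors the basement membrane, at 1.88 ± 0.12 (adjusted p = 3.3e-05) and COL12A1, singled out, at -0.92 ± 0.13 (adjusted p = 0.0018). CAVIN2, a caveola coat protein, was at least 3.03-fold lower (adjusted p = 0.00028), while CAV1, singled out, had a value of -0.18 ± 0.17 (adjusted p = 0.47).

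Signalling proteins of the TGF-beta family had 3 higher and 3 lower of 10. ID3, a target of BMP signals, lay at 10.15 and 10.16 in DMSO and 8.47 and 8.26 in lovastatin and changed by -1.79 ± 0.15 (adjusted p = 0.00016), and FST, the activin antagonist follistatin, by -1.69 ± 0.12 (adjusted p = 4.9e-05). The 3 that rose were all dim in DMSO, and 0 of them were detected on all 4 arrays. In the Notch list 3 of 7 rose and 1 fell, HES4 at 1.37 ± 0.20 (adjusted p = 0.0018) and HES1, the classic target, at -0.85 ± 0.15 (adjusted p = 0.0044). Receptor tyrosine kinases had 3 higher and 4 lower of 12, and 2 to 3 lower with 1 array left out. DDR1, a collagen receptor, rose by 1.01 ± 0.13 (adjusted p = 0.001), and ROR1, a Wnt receptor, changed by -1.15 ± 0.16 (adjusted p = 0.0013), with -0.60 on its other probe.

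Hypoxia and glycolysis genes rose in 13 of 32 and fell in 2, with 8 to 11 higher and 0 to 1 lower when 1 array was left out. Beside NDRG1, PFKFB4, which sets the level of a glycolysis activator, lay at 6.98 and 6.98 in DMSO and 9.40 and 9.10 in lovastatin and rose by 2.27 ± 0.14 (adjusted p = 2.5e-05). SLC2A3, a glucose transporter, rose by 1.97 ± 0.12 (adjusted p = 2.5e-05) and ENO2, an enolase, by 1.85 ± 0.12 (adjusted p = 2.8e-05). The glycolytic enzymes GAPDH and LDHA, singled out after their values were seen, showed log2 differences of 0.02 ± 0.11 (adjusted p = 0.9) and 0.10 ± 0.11 (adjusted p = 0.54). Interferon-stimulated genes had 10 of 21 higher and 2 lower, 1 to 3 lower with 1 array left out: ISG20, an exonuclease, rose by 2.43 ± 0.16 (adjusted p = 3.5e-05), OASL by 1.71 ± 0.12 (adjusted p = 4.3e-05), and OAS3 changed by -1.02 ± 0.14 (adjusted p = 0.0014). Histone genes had 12 of 29 higher, 4 to 7 with 1 array left out, and their copies are too alike for a probe to be assigned to 1 gene with certainty. CYP1B1, an oxidase that the aryl hydrocarbon receptor induces, lay at 7.65 and 7.84 in DMSO and 9.91 and 9.86 in lovastatin and rose by 2.14 ± 0.20 (adjusted p = 0.00021), and IGFBP6, a binding protein of IGF2, rose by 1.26 ± 0.11 (adjusted p = 0.00016). Proteasome genes had 1 lower of 33 and 0 with 1 array left out, vesicle coat genes 3 higher of 24 and 0 with any 1 array left out, and of 7 metallothionein and zinc genes 0 were called in limma's test.

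The change in OVCAR5 was then set against that in SKOV3 by testing the difference of the changes. It passed for 2635 of 9825 genes (26.8%), 14.7% with a higher change in OVCAR5 and 12.1% with a lower one, and for 1082 of the 2734 genes that changed in OVCAR5. In SKOV3 4980 genes (50.7%) changed. Of the genes called in both lines 1673 moved the same way and 168 opposite ways. MYC differed by 2.86 ± 0.19 (adjusted p = 7.4e-05), from a change of -2.89 ± 0.14 in SKOV3. DDIT3 and CDKN1A rose less in OVCAR5 than in SKOV3, by -2.66 ± 0.21 and -2.23 ± 0.20 (adjusted p = 0.00012 and 2e-04), and HMGCS1 differed by -1.31 ± 0.17 (adjusted p = 9e-04). DDIT4 rose by 4.04 ± 0.11 in SKOV3, and the difference of 0.17 ± 0.16 did not pass (adjusted p = 0.46).

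**Figure D4:**
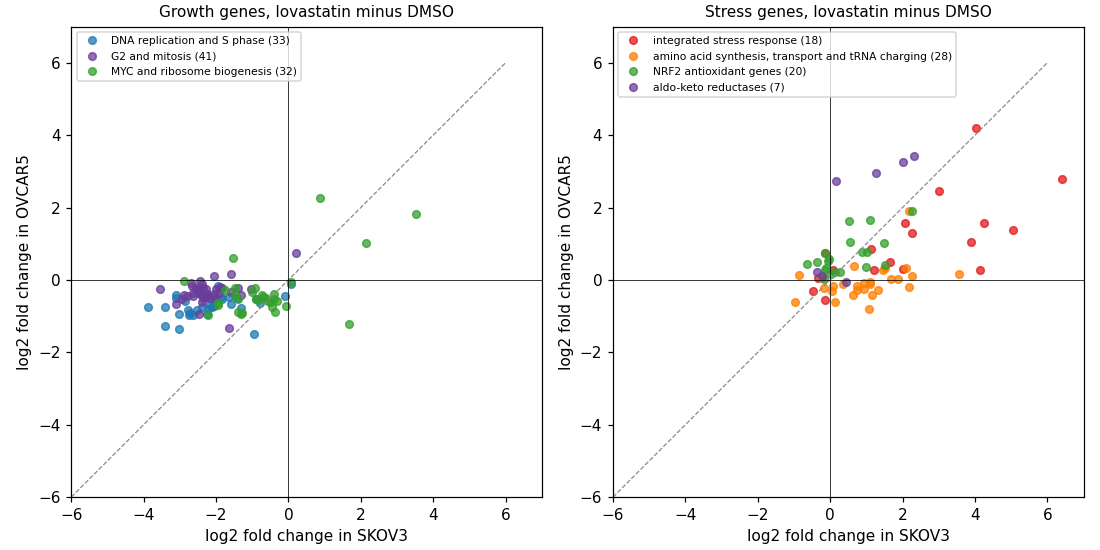
Change of growth genes (left) and stress genes (right) in OVCAR5 (vertical) against SKOV3 (horizontal), as log2 fold change of lovastatin over DMSO; each point is a tested gene, and the dashed line marks equal change. Mitotic genes lie above the line, as do replication genes other than CDC6 and, singled out, GINS3 and ORC6, with OVCAR5 medians for replication and mitosis of -0.71 and -0.37 against -2.22 and -2.35, and 4 aldo-keto reductases lie above it.

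Opposite movement in the 2 lines was found among 11 of the named genes. SHISA2, of a family known from frogs to retain Wnt and FGF receptors, rose by 1.80 ± 0.11 in OVCAR5 and changed by -2.29 ± 0.11 in SKOV3, CYP1B1 by -2.22 ± 0.20 and LRRC17 by -2.31 ± 0.17 in SKOV3 after rises of 2.14 ± 0.20 and 1.07 ± 0.17 in OVCAR5. CLDN1 and RRP9 went the other way, up by 1.69 ± 0.15 and 1.68 ± 0.15 in SKOV3. MECOM fell by 0.99 in OVCAR5 and rose by 0.82 ± 0.13 in SKOV3.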

How the data were processed

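RNA of the OVCAR5 cells was measured on Illumina beadchips; per the labels' protocols, total RNA was column-purified with DNase treatment and made into biotinylated cRNA. Per the file headers, the authors deposited non-normalized probe intensity; the values, positive throughout with array means that differ, show no sign of background subtraction. Beside each intensity the authors deposited a detection p-value. Their log2 values, deposited separately, were made with limma per the submitters' processing notes (version not given in the sources used here). Of the latter, 99.987% in OVCAR5 lay within 0.01 log2 of neqc run on the OVCAR5 arrays alone, so they were taken as uncentred log2 values (median 4.74 on each OVCAR5 array, 1 value missing).

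Intensities of all 8 arrays were normalized jointly by neqc (limma 3.58.1, R 4.3.3; background from the detection p-values, quantile normalization, offset 16). Of 47323 probes, 30113 had 1 gene symbol in the platform annotation, 8 several and 17202 none here; 30074 matched a RefSeq gene record (GRCh38.p14), and 12877 passed the filter. Several probes were kept for 2517 genes; 656 of these genes were called, and 44 of the called had a probe of opposite sign. Limma fitted 4 group means over the 8 arrays, with contrasts for lovastatin against DMSO in OVCAR5 and for its difference from SKOV3. The arrays of a group shared at most 0.376% of values, so none was a copy of another. The fit alone was tested on simulated log2 values with known changes, which left normalization, filter and probe choice untested. Figures used matplotlib in Python.

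The genes and lists were chosen with earlier results of these data known. Genes named include the 15 highest and 15 lowest among called genes detected on both arrays of a group, with no overlap between treatments. Named too are up to 4 members of each of 60 lists by size of change and 20 further genes. The 5 highest and 5 lowest differences between lines complete them, and others are said to be singled out. One list and its genes, with 1 of the 15 highest, are not reported here. Alternatives covered the arrays fitted, the authors' values, background correction, scaling, filter, probe choice, variance model, a replicate block and leaving out each array. Samples with the same replicate number did not deviate together in OVCAR5 (r = -0.01 over 9825 genes), so the numbers were not taken to pair arrays. In SKOV3 r was 0.24. In each group replicate 1 had more detected probes than replicate 2, such as 16206 and 15717 in OVCAR5 lovastatin. The origin of this pattern was not tested.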

Additional observations from a re-analysis of the deposited data

Results flagged for a closer look

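The effect of lovastatin was tested for a difference between OVCAR5 and SKOV3 in 52 genes: those with the largest changes, the genes always named and those with the largest difference. In 42 the difference passed limma's test at an adjusted p under 0.05, with values from 2.2e-05 to 0.035. Over all tested genes 26.8% passed. Each value below is the log2 change in OVCAR5 minus that in SKOV3. The 10 genes of largest difference were chosen for it, and the highest and lowest genes for their change in OVCAR5. Their values, and the count of 42, are therefore a description. Some genes that rose in OVCAR5 had a higher change there than in SKOV3. They were CYP1B1 by 4.36, SHISA2 by 4.09, LRRC17 by 3.38, CALHM3 by 3.34, ARL14 by 3.26, SLCO2B1 by 2.98 and BHLHE40 by 2.79. The others were AKR1B10 by 2.57, RAP1GAP by 2.0, APCDD1L by 1.91, AKR1C3 by 1.71, AKR1C4 by 1.24, AKR1C2 by 1.13 and FOXQ1 by 0.69. SLCO2B1 and AKR1B10 were undetected on every SKOV3 array and ARL14 was detected on 1, so their SKOV3 changes were read near the detection limit. Some genes that fell in OVCAR5 had a higher change there and a larger fall in SKOV3. They were THBS1 by 3.45, EDN1 by 3.01, CCN1 by 2.21, ANKRD1 by 1.89 and CCN2 by 1.83. MYC by 2.86 and ABCA1 by 2.42 differed as well, without a call in OVCAR5. 

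A lower change in OVCAR5 than in SKOV3, with a value above 0 in OVCAR5, was found for MAP1LC3B by -0.89, SQLE by -0.90, ATF4 by -0.94, INSIG1 by -0.95, HMGCS1 by -1.31, KLF4 by -1.98, CDKN1A by -2.23, DDIT3 by -2.66, GDF15 by -3.61, SNORD3C by -4.53, IL1A by -4.72 and RN7SK by -5.61. With a value below 0 in OVCAR5, it was found for TUB by -0.69, ANXA3 by -1.32, KISS1 by -1.80, PPME1 by -1.81, RGS7 by -1.92, PKP2 by -2.03, TXNIP by -2.43, RNVU1-7 by -4.29 and RNA5S9 by -5.54. KISS1 and RGS7 were undetected on every SKOV3 array, where a fall could not have been seen. RN7SK, RNA5S9, SNORD3C and RNVU1-7 are structural RNAs with near-identical copies, which their probes cannot be assumed to separate.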

How the results depend on the processing

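The count of genes called in OVCAR5, 2734, lay between 2221 with no filter on dim probes and 3411 with the OVCAR5 arrays fitted alone. With the authors' deposited log2 values it was 2850, of which 2689 were shared. Of the 2734 genes, 4 changed sign with the mean of kept probes and 0 under each other setting in which they were tested. Leaving out 1 OVCAR5 array gave 1490 to 1578 called genes, 912 to 992 higher and 577 to 626 lower; the lone array was then assumed to vary like the other groups. Leaving out 1 SKOV3 array gave 2338 to 3437 called, 1378 to 1911 higher and 960 to 1526 lower. For the difference between lines the count of 2635 was 1737 to 3121 with 1 array left out, and 2330 to 2933 under the other settings. The replicate number as a block gave 2861 called genes for lovastatin in OVCAR5 and 2774 for the difference. The labels give these arrays only a shared number, so nothing is read from this. Of 199 called genes eligible for naming, 40 lost their call without 1 of the OVCAR5 arrays and 41 under at least 1 setting. Those given as risen or fallen in the text are named there with their values, and the cause was not tested. RNVU1-7, among the 11 named genes of opposite movement, lost its call at -0.81 without DMSO array 2 and -0.61 without lovastatin array 1. NQO1, another of the 11, lost its call without any 1 OVCAR5 array, at 0.40 to 0.47. Alternatives that left out SKOV3 arrays, and all singled-out genes, were chosen after seeing the data. Signal over background limits dim genes, whose change is smaller without background correction.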
